A study of Mus musculus with 33 samples.

Results

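The nuclear genes for subunits of the respiratory chain were described in bulk RNA-seq of the mouse posterior hypothalamus (PH) and preoptic area (POA). A gene belonged to the set when its name began with *Ndufa*, *Ndufb*, *Ndufc*, *Ndufs*, *Ndufv*, *Uqcr*, *Cox4* to *Cox8* or *Atp5*, or was *Sdha*, *Sdhb*, *Sdhc*, *Sdhd*, *Cyc1* or *Cycs*, and assembly factors and names ending in -ps were left out. The rule found 94 of the 41565 named rows of the table, with 93 distinct names. Tissue came from adult wild-type female mice that were intact or had been bilaterally ovariectomized (OVX) 14 days or 4 months earlier, so the OVX groups lacked ovaries, and the intact group was collected in diestrus. The titles call the intact libraries sham, whereas another label calls them intact. There were 4 intact, 6 14-day and 6 4-month libraries of the PH, and 5, 6 and 6 of the POA, and the labels place 2 or 3 libraries of each group in each of 2 batches. The study's methods describe C57BL/6 mice operated on as adults, and no intact group was matched in age to the 4-month mice, so age and time after OVX cannot be told apart there. No label states that each library is a separate mouse, so *P* values measure only the spread between these libraries.

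The respiratory chain lies in the inner mitochondrial membrane. Complexes I and II pass electrons from NADH and succinate to ubiquinone, complex III passes them to cytochrome c, and complex IV passes them to oxygen, while complexes I, III and IV pump protons whose return through complex V (ATP synthase) makes ATP. All subunits of complex II are encoded in the nucleus, and the other complexes also hold subunits encoded in mitochondrial DNA. Neurons depend strongly on this pathway, which supplies most of the ATP for ion pumping and synaptic transmission.

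By name, 41 of the 94 rows belong to complex I, 4 to complex II, 9 to complex III, 21 to complex IV (with *Ndufa4* and *Ndufa4l2*), 18 to complex V, and 1 is cytochrome c. In each region 88 of them reached 2 times the floor of the table in enough libraries to be tested, namely 38, 4, 9, 19, 17 and 1. The 6 others were *Cox8c*, *Cox6c2*, *Ndufb11b*, *Ndufa11b*, *Ndufs6b* and a second row named *Atp5o*, whose group means of 21.7 to 32.9 lay at or near the floor of 22.2. Among these, *Cox6c2* and *Ndufa11b* are annotated as processed pseudogenes, so leaving out names ending in -ps did not remove every pseudogene. The values are a normalized signal and not counts, and the number of reads behind each value is unknown. The sum of all values was 44631100 to 73077900 per library.

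All 14 neuron markers were above 2 floors in every library, with summed levels of 312447 to 535729. Markers of tissue next to the dissected regions were also present: the summed level of 8 thalamus markers ranged from 24178 to 75799, that of 8 choroid plexus markers from 4661 to 92859, and that of 8 pituitary markers from 420 to 10933. PH 14-day replicate 5 stood apart, with the highest sum of values and the highest mean of the 13 mitochondrially encoded subunits (20.33 on the log2 scale). It was the highest of the 16 PH libraries for 34 of 88 respiratory chain genes (38.6%, beside 24.6% of all genes tested) and the lowest for 36 (40.9%, beside 25.9%). In that library the mean of the complex II genes lay 0.41 log2 units below the PH mean and that of complex III 0.31 below, whereas that of complex I lay 0.10 above. The surrogate variable (SV1) used as the covariate in the PH was largest there, at 0.785. Where a value involving the PH is followed by one without replicate 5, this is the library left out.

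Respiratory chain subunits were among the abundant transcripts of both regions. The median of the members' mean values was 3722, and 79 members had a mean above 1000. Levels are compared between genes per kilobase of the canonical transcript, and whether the deposited signal scales with transcript length was not tested. On that scale the highest members in the PH were *Atp5b* (21101), the catalytic β subunit of ATP synthase, *Cox4i1* (16644), the common form of complex IV subunit 4, *Cox6c* (13729), *Atp5a1* (13078), the α subunit of ATP synthase, *Ndufa4* (12098) and *Cox8a* (10720). Without replicate 5 *Cox6c* was at 12852 and *Atp5a1* at 13217, so their order changed. In the POA the same scale gave 22139 for *Atp5b* and 17271 for *Cox4i1*.

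Several subunits exist as a common form and a form known from particular tissues or states, and the common form was far higher in each pair. In the PH the level per kilobase was 16644 for *Cox4i1* against 103 for *Cox4i2*, a form described in lung and under low oxygen. It was 8959 for *Cox6a1* against 254.6 for the heart and muscle form *Cox6a2*, and 5131 for *Cox7a2* against 199 for the heart and muscle form *Cox7a1*. The testis forms *Cox6b2* (203) and *Cox7b2* (21.7) stood against 10144 for *Cox6b1* and 5514 for *Cox7b*. The muscle form *Cox8b* reached 19.6 against 10720 for *Cox8a*, and *Ndufa4l2* reached 102 against 12098 for *Ndufa4*. *Cox8b* and *Cox7b2* lay near the floor, so their levels per kilobase are largely the floor divided by the length. Subunit c of the ATP synthase rotor is made from 3 genes, which had PH levels of 5823 (*Atp5g1*), 205 (*Atp5g2*) and 7152 (*Atp5g3*) and POA levels of 6650, 206 and 7664. The levels of *Cox4i2* and *Cox6b2* rest on transcripts that share no stretch of 31 bases with another gene. Of such stretches, 57.3% in *Cox8b*, 74.6% in *Ndufa4l2*, 78.5% in *Atp5g1* and 88.3% in *Atp5g2* also occur in transcripts of other genes. The values of these genes are therefore uncertain. Of 87 tested members with a transcript, 19 shared more than 50% of their stretches. Here and below, a stretch counts as shared on the same or the opposite strand, and the strands were not told apart. How many strand-specific reads were affected is therefore unknown.

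**Figure D1:**
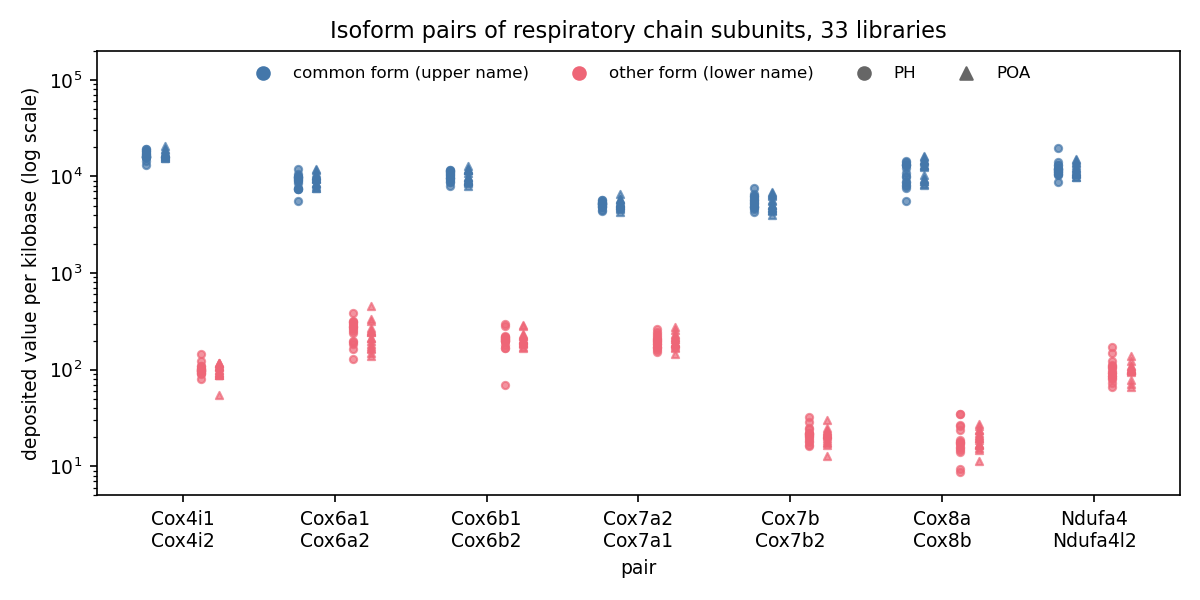
Deposited value per kilobase of canonical transcript (log axis) of 7 pairs of subunit isoforms in each of the 33 libraries, circles for the PH and triangles for the POA; blue marks the common form and red the other form. In every pair the blue points lie far above the red ones, as with *Cox4i1* (PH mean 16644) and *Cox4i2* (103).

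OVX was compared with intact to ask whether the transcripts for oxidative phosphorylation differ after loss of ovarian hormones. No respiratory chain gene passed the test in any of the 8 comparisons (limma, Benjamini-Hochberg adjustment over all genes tested, adjusted *P* under 0.05), and the largest shift of the median member was 0.03 log2 units. At 14 days in the PH 0 of 88 members were called (all genes, 0% higher and 0% lower), and at 4 months 0 of 88 (0.0274% higher, 0.00456% lower). POA calls were 0 of 88 at 14 days (0% higher, 0.0047% lower) and 0 of 88 at 4 months (0.0799% higher, 0.0141% lower). Between the OVX times 0 of 88 were called in the PH (0.00912% higher, 0% lower) and 0 of 88 POA members (0.0235% higher, 0.0047% lower). In bulk tissue, fewer cells of a type and less RNA per cell cannot be told apart.

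At an unadjusted *P* under 0.05, 1 member was lower at 14 days in the PH (all genes, 1.56% higher and 1.48% lower), and 1 was higher at 4 months (2.96% and 3.12%). The POA had 1 lower at 14 days (2.83% and 3.31%) and 1 higher at 4 months (4.1% and 4.41%). Between the OVX times the PH had 0 (2.08% and 2.01%) and the POA 0 (2.47% and 2.64%). One member in 88 is 1.14%, so in this fit these counts lie near or below the background. With the thalamus marker mean added to SV1, a fit chosen after the data were seen, 11 POA members were higher at 4 months (12.5%, against 5.21% of all genes) and 1 lower (1.14%, against 5.14%), and 0 passed the adjusted test.

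The intervals give, gene by gene, a range of change estimated from the spread between these libraries. They are not joint over the members, so some may miss the true change. At 14 days the 95% interval of the log2 fold change lay within 1.5-fold in either direction for 83 of 88 members in the PH and for 87 of 88 POA members, and at 4 months for 84 and 86. The median half-width was 0.19 and 0.18 log2 units in the PH comparisons with intact and 0.15 in both POA ones.

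**Figure D2:**
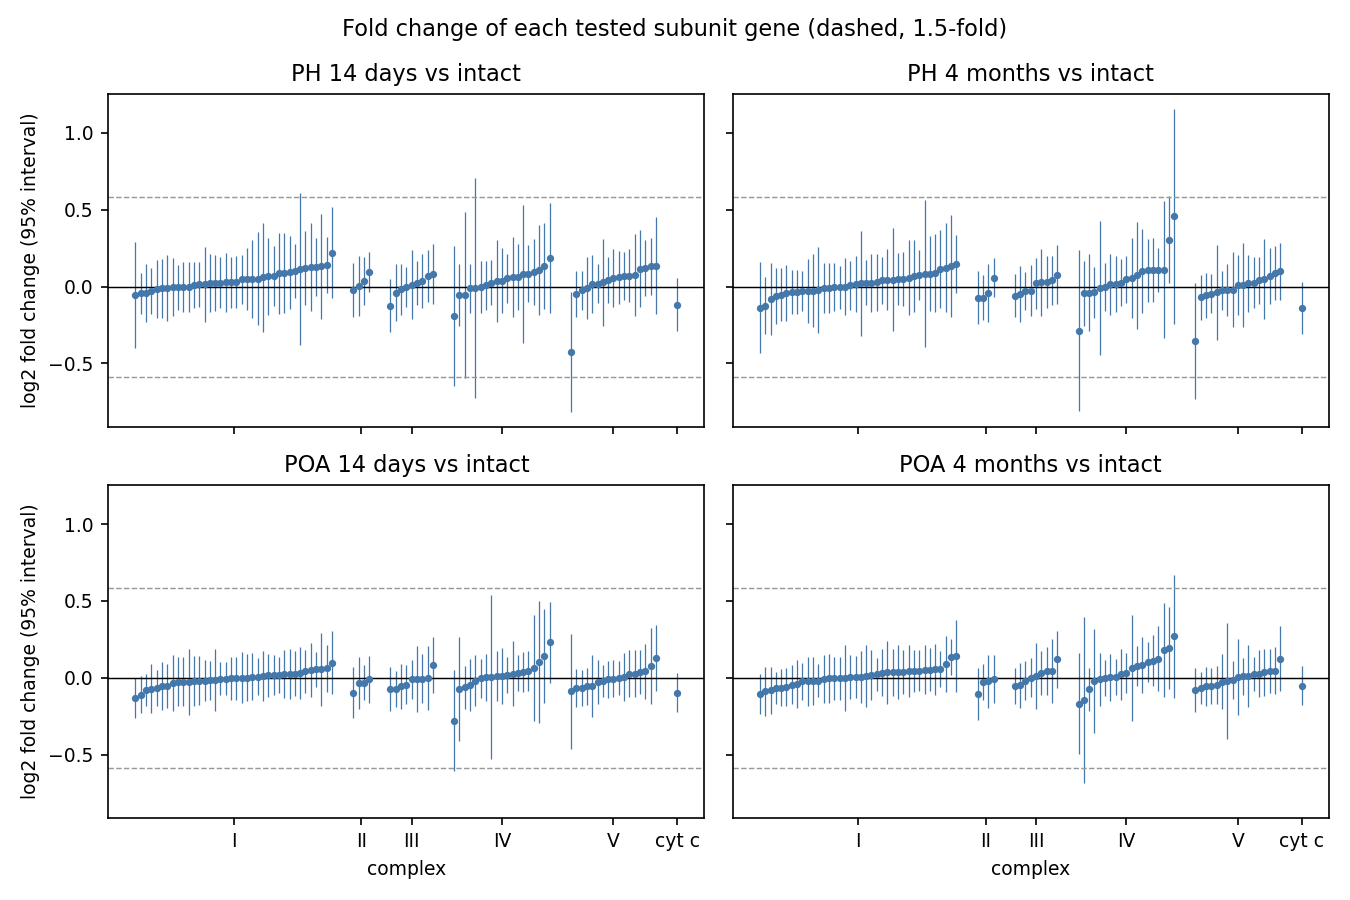
Log2 fold change with its 95% interval (limma) of the 88 tested subunit genes, by complex, for 14 days and 4 months after OVX against intact in the PH and POA; dashed lines mark 1.5-fold. Most points lie within 0.1 of 0 (PH, 69 and 72 of 88; POA, 81 and 74), and the widest intervals belong to *Cox8b* (PH) and *Cox6a2* (POA).

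By complex, the medians at 14 days in the PH were 0.03 (complex I), 0.02 (II), 0.01 (III), 0.04 (IV) and 0.05 (V) on the log2 scale, with *Cycs* at −0.12. At 4 months they were 0.02, −0.06, 0.02, 0.05 and 0.01, with *Cycs* at −0.14. POA medians were between −0.03 and 0.01 at 14 days and between −0.03 and 0.03 at 4 months, with *Cycs* at −0.10 and −0.05. The 4 complex II genes, the succinate dehydrogenase subunits, all had log2 fold changes below 0 in the POA at both times, from −0.11 (*Sdhc*, 4 months) to −0.0074 (*Sdhd*, 4 months), and none passed the test.

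In the PH at 14 days 61 of 88 members had a log2 fold change above 0 (69.3%, against 49.4% of all genes), and at 4 months 49 (55.7%, against 47.1%). The POA had 39 at 14 days (44.3%, against 47.8%) and 49 at 4 months (55.7%, against 46.5%). Against 14 days, 26 PH members were above 0 at 4 months (29.5%, against 47.2%) and 64 POA members (72.7%, against 48.9%). These shares describe a set whose members vary together, and the shifts behind them were small: the PH medians were 0.03 and 0.02, the POA medians −0.0051 and 0.0056, and −0.02 and 0.01 between the OVX times. Without PH 4-month replicate 3 the PH median between the OVX times was 0.01, and without POA 14-day replicate 6 the POA one was −0.02, so each turned when 1 library was left out. Within batches the median at 14 days in the PH was −0.01 (batch 1) and 0.02 (batch 2), and that in the POA 0.05 and −0.05. Between the OVX times in the POA it was −0.06 in batch 1 and 0.09 in batch 2, so its direction differed between batches.

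Among the complex V genes, *Atp5g2*, a subunit c gene, was the member with an unadjusted *P* under 0.05 in the PH at 14 days. It lies at chr15:102571295-102580787 on the minus strand (GRCm39, where it is named *Atp5mc2*). Its intact values were 173, 200, 217 and 143, and the 14-day values ranged from 86.1 through a median of 121 to 200. The 4-month values ranged from 109 through 151 to 181. Both OVX groups overlapped intact. The log2 fold change was −0.42 (SE 0.19, 95% interval −0.81 to −0.04, adjusted *P* = 0.999869 by limma) at 14 days and −0.35 (SE 0.18, adjusted *P* = 0.834) at 4 months. Within batches the 14-day value was −0.70 and −0.37, and it was −0.41 without PH 14-day replicate 5. In the POA the values were 129 to 185 in intact and 106 to 216 at 14 days, with log2 fold changes of −0.09 (SE 0.18) and −0.02 (SE 0.18), and the interaction test was not passed at either time (adjusted *P* = 0.99998 and 0.99995). The other subunit c genes carry most of the transcript, as given above.

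Among complex IV genes, *Cox7a1*, the heart and muscle form of subunit 7a (chr7:29883569-29885503, plus strand, GRCm39), did not overlap between intact and 4-month PH. Intact values were 80.4, 76.4, 75.4 and 82.1, and 4-month values ranged from 88.1 through a median of 96.5 to 115. The 14-day group spanned both, from 67.7 to 108. This 1 of 88 members (1.14%) stands against 0.552% of all genes wholly above intact and 0.388% wholly below. No member was without overlap in the other comparisons (0 of 88), where the shares of all genes above and below were 0.278% and 0.292% (PH, 14 days), 0.128% and 0.109% (PH, 4 months against 14 days), 0.263% and 0.146% (POA, 14 days), 0.413% and 0.254% (POA, 4 months) and 0.0658% and 0.0423% (POA, 4 months against 14 days). The log2 fold change was 0.30 (SE 0.14, 95% interval 0.02 to 0.59, adjusted *P* = 0.794), with 0.29 and 0.35 within batches. In the POA the 4-month values, 64.1 to 123, enclosed the intact ones, 74.0 to 96.6. The common form *Cox7a2* had 3895 to 4365 in intact PH and 3562 to 4595 at 4 months.

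*Cox8b* had the largest log2 fold change of any member with intact, 0.46 at 4 months in the PH (SE 0.33, 95% interval −0.24 to 1.16, adjusted *P* = 0.892). Its intact values were 55.9, 20.02, 31.98 and 40.5, and its 4-month values ranged from 36.8 through 44.4 to 74.0, so the groups overlapped and lay close to the floor. *Cox8b* followed the choroid plexus: within groups, its log2 value correlated with the mean of 8 choroid plexus markers across 16 PH libraries (Pearson *r* = 0.783, Spearman 0.797, 0.703 without the 2 libraries farthest from the median) and 17 POA libraries (0.755, 0.694 and 0.608). Within batches *r* was 0.861 and 0.770 (PH) and 0.854 and 0.682 (POA). The part of choroid plexus tissue in the *Cox8b* values was not tested.

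*Cox7b2*, the testis form of subunit 7b, had the only interaction with an unadjusted *P* under 0.05 among the members (1 of 88, against 1.34% higher and 1.72% lower of all genes for the 14-day response; 0 of 88, against 1.68% and 2% of all genes, for the 4-month response). Its PH values were 36.8, 42.1, 46.1 and 39.6 in intact and 38.2 to 67.8 at 14 days. The POA values were 62.8, 49.4, 48.5, 34.9 and 45.6 in intact and 27.0 to 45.9 at 14 days. The groups overlapped in both regions. The log2 difference of the responses, PH minus POA, was 0.48 (SE 0.22, 95% interval 0.02 to 0.93, adjusted *P* = 0.99998), and the groups' means were 40.4 to 49.9, near the floor of 22.2. Without replicate 5 it was 0.43, and 0 members had an unadjusted *P* under 0.05. No member passed the interaction test at either time (0 of 88, against 0.00436% higher and 0% lower of all genes at 14 days, and 0.00873% and 0% at 4 months).

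Among complex I genes, *Ndufa9*, a subunit of the peripheral arm near the ubiquinone site (chr6:126798684-126826117, minus strand, GRCm39), was the member with an unadjusted *P* under 0.05 in the POA at 14 days. Its intact values were 4382, 4207, 4127, 4169 and 4514, and its 14-day values ranged from 3243 through a median of 4036 to 4346. The groups overlapped, and replicate 6 was far below the other 14-day libraries. The log2 fold change was −0.13 (SE 0.06, adjusted *P* = 0.806) with that library and −0.07 (adjusted *P* = 0.916) without it, and −0.05 and −0.19 within batches. At 4 months it was −0.10 (SE 0.06, adjusted *P* = 0.699). In the PH it was −0.0029 and −0.04. Replicate 6 also had the lowest neuron marker mean (13.995 on the log2 scale, 14 markers) of the POA libraries. Within groups *Ndufa9* followed that mean across 17 POA libraries (Pearson *r* = 0.873, Spearman 0.782, 0.702 without the 2 farthest libraries), with 0.436 and 0.947 within batches. Across 16 PH libraries *r* was 0.077, and 0.034 and −0.426 within batches. The mean of the tested members also followed the neuron marker mean in the POA (Pearson *r* = 0.699, Spearman 0.515, 0.393 without the 2 farthest libraries). Within batches of the POA its *r* was 0.562 and 0.780. In the PH its *r* was −0.133, and 0.053 and −0.684 within batches. The part of neuron content in the *Ndufa9* values or the member mean was not tested.

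*Ndufa6*, an accessory subunit of complex I (chr15:82234340-82238523, minus strand, GRCm39), was the POA member with an unadjusted *P* under 0.05 at 4 months. Its intact values were 2636, 2403, 2473, 2432 and 2772, and its 4-month values ranged from 2670 through 2815 to 3012, with overlap. The log2 fold change was 0.14 (SE 0.06, 95% interval 0.02 to 0.25, adjusted *P* = 0.502), and 0.20 and 0.11 within batches. Of its 31-base stretches 52.1% also occur, on either strand, in transcripts of its neighbor *Smdt1*. In the PH it was 0.05 and 0.04, and PH 14-day replicate 5 had 4645 against 2476 to 2936 in the other 14-day libraries.

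The other members with the smallest *P* values in each comparison were also far from the threshold. In the PH at 14 days they were *Ndufb1* (0.14), *Ndufa2* (0.22), *Sdha* (0.09) and *Cyc1* (−0.12), and without replicate 5 they were at 0.14, 0.16, 0.09 and −0.13. *Sdha*, which carries the flavin of complex II, had 18297, 18844, 20262 and 20226 in intact PH and 19440 to 22078 at 14 days. At 4 months they were *Cycs* (−0.14), *Ndufa3* (0.15) and *Cox6a1* (0.11). In the POA at 14 days they were *Ndufa10* (−0.11), *Cox6b2* (0.23), *Cox7b2* (−0.28) and *Ndufs1* (−0.08, the large iron-sulfur subunit of complex I), and at 4 months *Ndufa9*, *Cox6c* (0.10), *Cox6b2* (0.19) and *Cox6a1* (0.11).

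No gene passed the adjusted test in the lists of 53 tested assembly factors, 13 mitochondrially encoded subunits, 22 regulators of mitochondrial biogenesis, 18 tricarboxylic acid (TCA) cycle enzymes or 30 import and inner membrane genes in any comparison with intact. At an unadjusted *P* under 0.05 the assembly factors gave 0 at 14 days in both regions. At 4 months they gave 1 lower in the PH, *Ttc19* (−0.23), and 2 higher and 2 lower in the POA, led by *Cox14* (0.25). These were 1.89% of the 53 in the PH and 3.77% in each direction in the POA, against the shares of all genes given above. The mitochondrially encoded subunits had a median of −0.13 at 4 months in the PH, with 1 of 13 above 0 and 2 lower at an unadjusted *P* under 0.05 (15.4%, against 3.12% of all genes). Their mean log2 value overlapped between the groups, at 17.70 to 18.60 in intact PH and 16.93 (replicate 6) to 18.40 at 4 months. In both groups the batch 1 libraries lay above the batch 2 libraries. Of the 18 TCA enzymes 4 were lower in the POA at 14 days (22.2%, against 3.31% of all genes) and 4 at 4 months (22.2%, against 4.41%), with 0 higher and medians of −0.08. Of them, 0 and 2 had log2 fold changes above 0. The mean log2 value of these enzymes was 12.237 in POA 14-day replicate 6. It was 12.451 to 12.5875 in the other 14-day libraries, 12.5 to 12.585 in intact and 12.390 to 12.554 at 4 months. The counts were not repeated without that library. *Dld*, the lipoamide dehydrogenase shared by the oxoglutarate and pyruvate dehydrogenase complexes, was at −0.15 (adjusted *P* = 0.798) at 14 days and −0.17 (adjusted *P* = 0.311) at 4 months, and *Ogdh*, the first subunit of the oxoglutarate dehydrogenase complex, at −0.12 at both.

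Averaged over the 88 members, the libraries differed little. The member mean, as a log2 deviation from the region's mean, was −0.014 ± 0.052 (SD, n = 4) in intact PH, 0.005 ± 0.070 (n = 6) at 14 days and 0.005 ± 0.081 (n = 6) at 4 months. In the POA it was −0.005 ± 0.057 (n = 5), −0.007 ± 0.087 (n = 6) and 0.011 ± 0.102 (n = 6). All groups overlapped within a region. The lowest library was POA 14-day replicate 6 at −0.174, the next lowest PH 4-month replicate 3 at −0.139, and the highest POA 4-month replicate 6 at 0.133.

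**Figure D3:**
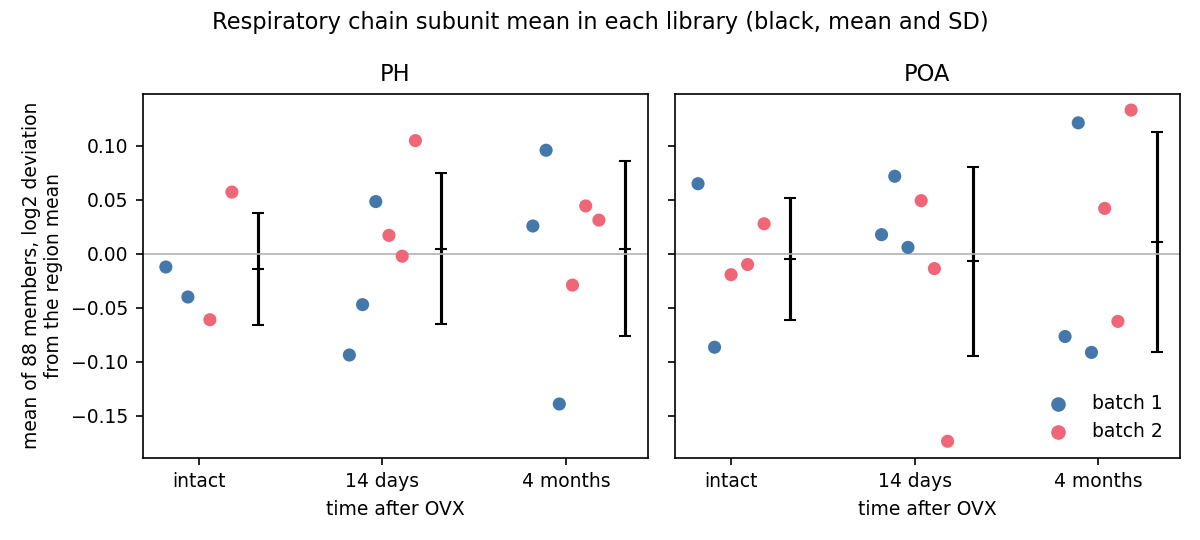
Mean log2 value of the 88 tested subunit genes in each library, as the deviation from the region's mean, by group for the PH and POA; points are libraries colored by batch, and black marks show the mean and SD. The groups overlap, and the lowest point is POA 14-day replicate 6 at −0.174.

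The members varied together within groups. Each member's log2 value, centered within region and group, was correlated over the 33 libraries with the mean of the other members. The median *r* was 0.378, with 30 of 88 members above 0.5 (34.1%, against 3.51% of all 21145 genes tested in both regions) and 83 above 0. Without PH 14-day replicate 5 the median was 0.484, with 42 above 0.5. Centered within batches as well, the median was 0.540 and 48 were above 0.5 (54.5%, against 7.43%). By complex the medians were 0.389 (I), 0.557 (II), 0.379 (III), 0.350 (IV) and 0.415 (V). These correlations share libraries, depth and base composition, and they have no test.

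The members most like the rest were *Cox7a2* (*r* = 0.817), *Sdhb* (0.791), the iron-sulfur subunit of complex II, *Ndufb5* (0.786), *Atp5j2* (0.769) and *Cox4i1* (0.695). *Cox7a2* ranged from 3478 in POA 14-day replicate 6 to 5325 in POA 4-month replicate 2. At the other end were *Cox6a2* (−0.615), *Cox4i2* (−0.254), *Ndufa10* (−0.146), *Ndufa4l2* (−0.142) and *Cycs* (−0.082). Of these 5, *Cox6a2*, *Cox4i2* and *Ndufa4l2* are the weakly expressed forms named above.

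Other gene lists moved with the member mean. The median *r* of their genes with it was 0.538 for 60 cytosolic ribosomal proteins, 0.348 for the import genes, 0.261 for the assembly factors, 0.203 for the TCA enzymes and −0.032 for the mitochondrially encoded subunits. It was −0.720 for the 8 thalamus markers. Across libraries, within groups, the member mean followed the ribosomal protein mean in the PH (Pearson *r* = 0.857, Spearman 0.906, 0.920 without the 2 farthest libraries, n = 16) and in the POA (0.889, 0.853 and 0.844, n = 17). Within batches *r* was 0.974 and 0.853 (PH) and 0.887 and 0.918 (POA), and without replicate 5 it was 0.866 (PH). With the sum of all values, the member mean had an *r* of −0.178 (PH) and 0.594 (POA). Within batches that *r* was −0.309 and −0.456 (PH) and 0.750 and 0.818 (POA). With the median of all genes tested in both regions, it was 0.520 (PH) and −0.054 (POA). Within batches this was 0.918 and 0.519 (PH) and 0.846 and −0.811 (POA). The part of library-wide scaling in these relations was not tested.

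The member mean ran against the thalamus marker mean, in the PH at *r* = −0.899 (Spearman −0.903, −0.899 without the 2 farthest libraries) and in the POA at −0.728 (−0.647 and −0.531). Within batches *r* was −0.968 and −0.881 (PH) and −0.807 and −0.785 (POA), and without replicate 5 it was −0.913 (PH). The lowest member means belonged to the libraries with the highest thalamus marker means, PH 4-month replicate 3 (12.66 on the log2 scale) and POA 14-day replicate 6 (12.48). The median log2 fold change of the 8 thalamus markers at 14 days and 4 months was −0.22 and −0.17 (PH) and 0.34 and 0.37 (POA). All 8 were above 2 floors in every library. The part of thalamic tissue in the member values was not tested.

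**Figure D4:**
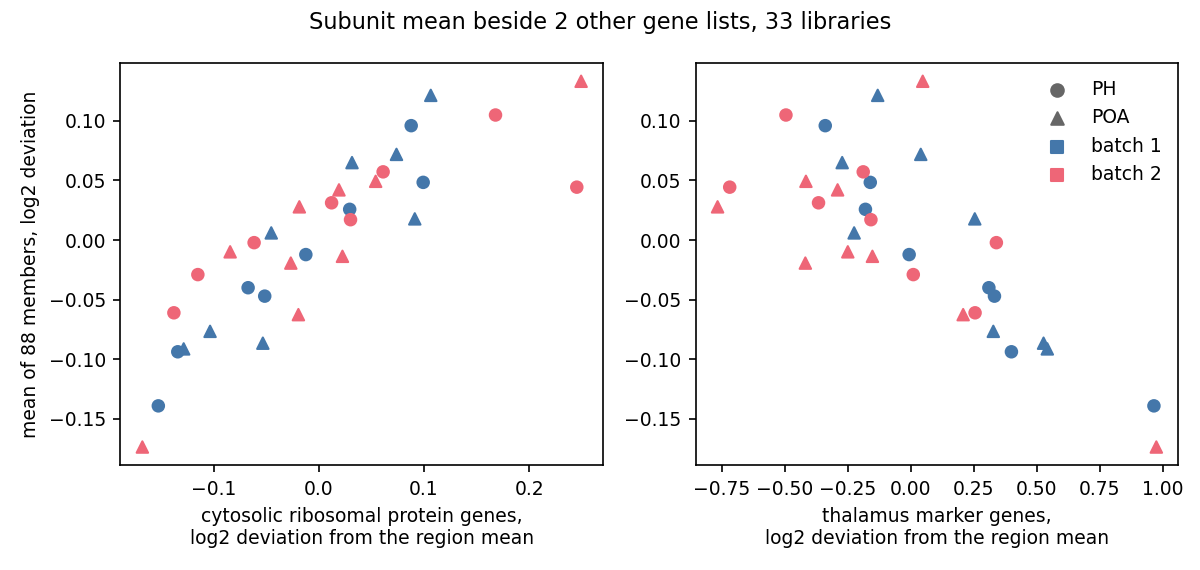
Mean of the 88 subunit genes against the mean of 60 cytosolic ribosomal proteins (left) and of 8 thalamus markers (right), as log2 deviations from the region mean, in 33 libraries; circles are PH and triangles POA, colored by batch. The subunit mean rises with the ribosomal mean (PH *r* = 0.857, POA 0.889) and falls with the thalamus markers (−0.899 and −0.728).

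*Cox6a2* (chr7:127804607-127805559, minus strand, GRCm39) went the other way. Its highest values were 308 in POA 14-day replicate 6 and 264 in PH 4-month replicate 3, the libraries with the highest thalamus marker means, and its lowest was 87.996 in PH 4-month replicate 1. Within groups it correlated with the thalamus markers at *r* = 0.586 (PH, Spearman 0.435, n = 16) and 0.689 (POA, 0.525, n = 17), and without the 2 libraries farthest from the median at 0.216 and 0.4005. The pooled relation rests in large part on those libraries. Within batches *r* was 0.865 and 0.759 (PH) and 0.811 and 0.860 (POA). The Spearman values there were 0.762 and 0.857 (PH) and 0.881 and 0.467 (POA), so the rank relation was weaker in POA batch 2. It shares 6.15% of its 31-base stretches with other genes.

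Spread between libraries of a group was modest. The median pooled SD of the members was 0.209 log2 units, against 0.243 for all genes tested in both regions. The steadiest were *Sdha* (0.0760), *Ndufb10* (0.0919) and *Ndufs3* (0.0965), and the most variable *Cox8b* (0.455), *Cox6a2* (0.449) and *Atp5md* (0.442). The *Atp5md* row is uncertain, since 94.2% of its 31-base stretches occur, on either strand, in *Taf5* transcripts.

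The largest differences within the set followed the batch. In a fit with batch in place of SV1, chosen after the values were seen, 46 of 88 members differed between batches in the POA. Of these 20 were higher in batch 2 (22.7%, against 20.1% of all genes) and 26 lower (29.5%, against 19.8%). The share of higher members thus lay near that of all genes. The higher ones included *Ndufs7* (0.66, adjusted *P* = 8.93e-09 by limma), *Atp5g1* (0.69), *Cox8a* (0.61), *Uqcr11* (0.59), *Atp5d* (0.57, adjusted *P* = 6.31e-09) and *Cyc1* (0.42), and the lower ones *Cycs* (−0.58, adjusted *P* = 1.68e-06), *Ndufab1* (−0.53), *Uqcrb* (−0.42) and *Atp5j* (−0.38). *Cyc1* and *Cycs*, the 2 cytochromes that follow each other in electron transfer, thus differed in opposite directions. In the PH 4 members were higher in batch 2 (4.55%, against 0.789% of all genes), namely *Ndufs7* (0.68, adjusted *P* = 0.00360), *Ndufa13* (0.37), *Ndufb2* (0.41) and *Ndufa2* (0.42), and 0 were lower (0.497% of all genes). Without replicate 5, also chosen after the values were seen, 21 PH members were higher (23.9%, against 13.4% of all genes) and 19 lower (21.6%, against 11% of all genes), so the count in the PH depends on that library.

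The direction followed base composition. The median transcript GC content was 55.9% for the 20 members higher in POA batch 2 and 47.7% for the 26 lower ones. Over 87 members the batch difference correlated with GC content at *r* = 0.583 (POA, Spearman 0.594) and 0.533 (PH, 0.545; 0.554 by Pearson without replicate 5). Genes are not independent replicates, so these values are descriptions. Both batches held every group, and SV1 of the POA separated them, with 0.186 to 0.351 in batch 1 and −0.322 to −0.125 in batch 2.

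The first component of the 88 members, centered within groups, held 51.1% of their variance, and its loadings correlated with GC content at 0.505 (Spearman 0.497). Batch 1 libraries scored from −0.232 to 0.047 and the batch 2 libraries from 0.084 to 0.293, apart from PH 14-day replicate 5 at −0.548. Without that library the first component held 50.1%, with loadings that correlated with GC content at 0.569, and batch 1 scored from −0.280 to −0.053 and batch 2 from 0.108 to 0.230. The second component (16.5%) carried the shared level: its scores correlated with the member mean at 0.860 (Spearman 0.834, n = 33). Among 3828 pairs of members the median correlation was 0.181, and the extremes were *Atp5g1* with *Cox8a* (0.988) and *Atp5d* with *Cycs* (−0.925).

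**Figure D5:**
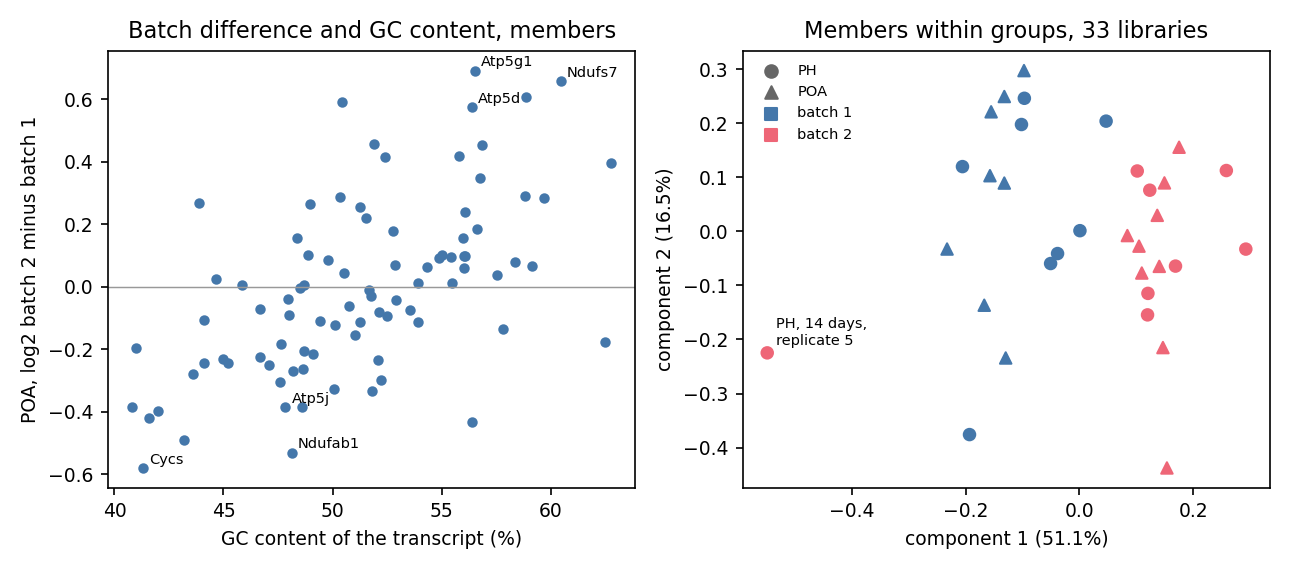
Left, log2 difference of each member between batches in the POA (batch 2 minus batch 1) against the GC content of its transcript in percent (*r* = 0.583, 87 members). Right, scores of the 33 libraries on the first 2 components of the members centered within groups, colored by batch, circles for PH and triangles for POA; batch 1 lies at −0.232 to 0.047 on component 1, and PH 14-day replicate 5 lies apart at −0.548.

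The promoters of the set were searched for words of 3 factors known to act on respiratory chain genes. RefSeq promoters (GRCm38.p6, 250 bases before to 50 after the start) were found for 71 of 93 names, 76 promoters in all. The 10-base NRF1 word, printed in capitals below, occurred on either strand in 18 (23.7%, against 4.6% of all 32851 promoters), the ETS word CCGGAA in 27 (35.5%, against 14.9%) and the YY1 word AANATGGCG in 10 (13.2%, against 2.38%). Of the 76, 5 held both NRF1 and ETS words (6.58%, against 1.48%) and 30 held none of the 3 (39.5%, against 80.5%). A match describes letters and shows no binding. All promoters were not matched to the set in base composition or expression. Whether the words go with the shared variation of the members was not tested. *Ndufb4* and *Sdha* held the NRF1 word 3 times. The 250 bases before the start are shown for *Cox6a1* and *Sdhd*, which hold both words, for *Atp5g2*, the member with the smallest *P* in the PH at 14 days, and for *Cox7a2*, the member most like the others. All 4 lie on the minus strand and are written 5′ to 3′ in the direction of transcription, with NRF1 words and ETS words (TTCCGG on the opposite strand) in capitals. They are chr5:115348959-115349208 for *Cox6a1*, chr9:50603850-50604099 for *Sdhd*, chr15:102671048-102671297 for *Atp5g2* and chr9:79759854-79760103 for *Cox7a2* (GRCm38.p6).
Cox6a1: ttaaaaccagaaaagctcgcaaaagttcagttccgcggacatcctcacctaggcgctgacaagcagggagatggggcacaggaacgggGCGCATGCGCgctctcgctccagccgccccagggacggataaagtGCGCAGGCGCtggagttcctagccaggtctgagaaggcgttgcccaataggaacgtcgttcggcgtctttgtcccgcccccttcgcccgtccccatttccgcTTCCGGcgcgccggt
Sdhd: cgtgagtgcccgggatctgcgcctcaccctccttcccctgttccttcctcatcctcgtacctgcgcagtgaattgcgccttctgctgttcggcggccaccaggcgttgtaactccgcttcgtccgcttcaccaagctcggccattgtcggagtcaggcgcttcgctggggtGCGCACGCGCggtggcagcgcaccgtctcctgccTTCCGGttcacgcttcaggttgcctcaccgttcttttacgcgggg
Atp5g2: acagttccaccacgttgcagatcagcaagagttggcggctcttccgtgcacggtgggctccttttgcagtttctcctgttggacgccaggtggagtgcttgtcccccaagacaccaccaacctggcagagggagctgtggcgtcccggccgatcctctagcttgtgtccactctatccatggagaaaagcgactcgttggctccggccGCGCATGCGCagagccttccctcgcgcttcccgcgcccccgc
Cox7a2: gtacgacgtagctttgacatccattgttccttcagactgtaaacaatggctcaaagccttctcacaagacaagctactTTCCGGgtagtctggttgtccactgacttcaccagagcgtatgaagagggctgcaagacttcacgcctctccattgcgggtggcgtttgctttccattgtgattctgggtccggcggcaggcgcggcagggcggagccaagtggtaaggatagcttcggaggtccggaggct

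In the 250 bases shown, *Cox6a1* holds 2 NRF1 words and 1 ETS word, *Sdhd* 1 of each (the searched promoter, with 50 bases more, holds 2 ETS words), *Atp5g2* 1 NRF1 word and *Cox7a2* 1 ETS word. None of these genes passed the test after OVX.

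Microglia, red cell, endothelial and mural, and immediate early genes were among those higher at 4 months more often than all genes tested. Of 12 microglia markers, 8 (PH, against 2.96% of all genes) and 10 (POA, against 4.1%) were higher at an unadjusted *P* under 0.05, with median log2 fold changes of 0.30 and 0.21, and 1 passed the adjusted test in the POA. Their summed level was 15124 to 16438 in intact PH and 16626 to 20727 at 4 months, and the POA sums were 15826 to 17106 and 16684 to 20700. Of 8 red cell genes 6 were higher after 4 months in each region, with 1 past the adjusted test in the PH. By the same unadjusted rule, 7 of 15 endothelial and mural markers were higher and 1 lower in the PH, and 5 higher and 2 lower in the POA. Of 20 immediate early genes 6 were higher and 0 lower in the PH. In the POA 6 of them were higher, 3 past the adjusted test, and 4 lower. Of the choroid plexus, ependymal and pituitary markers 0 were called at 4 months in either region, also at an unadjusted *P* under 0.05. By that rule 4 of 6 tested pituitary markers were higher in the POA at 14 days (against 2.83% of all genes). Of 10 oligodendrocyte markers, 2 were lower at 4 months in each region (against 3.12% and 4.41%), with 1 higher in the POA. At 14 days 3 of them (PH, against 1.48%) and 4 (POA, against 3.31%) were lower and 0 higher. All 12 microglia markers were above 2 floors in every library. Their part in the member values was not tested.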

How the data were processed

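Bulk RNA-seq libraries of the PH and POA of female mice were grouped by region and time after OVX from their titles. The dissected tissue was frozen by the authors, who prepared strand-specific mRNA libraries, ran kallisto and tximport on the mouse transcriptome (mm39), and analyzed the result in DESeq2 with SV1, a surrogate variable, from smartSVA. The authors deposited 1 table of normalized signal on a linear scale, with values from 9.94 to 3687690, and the step that led to this signal is not given in the sources used here. Library depth is therefore unknown, and no interval for counting error is given.

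Log2 values were taken without a pseudocount, after 1259 rows without a gene name were left out. Genes entered a fit if 4 (PH), 5 (POA) or 4 (all regions) libraries or more held at least 2 times the table's floor of 22.2. Since the values are not counts, limma 3.58.1 (R 4.3.3, trend and robust variances) was fitted to the 3 groups of a region with SV1, which was estimated in base R with 5 rounds by the iteratively reweighted method. The interaction fit used all 33 libraries. The Benjamini-Hochberg adjustment ran over the 21919 (PH), 21283 (POA) or 22917 (interaction) genes tested. Fits were also run on simulated data with independent noise for each gene. Those data lack the variation that genes share beyond SV1, and no result here rests on them. Lengths, GC content, positions and shared stretches of 31 bases were read from the M39 release of GENCODE (GRCm39), later than the one behind the table. Stretches were matched on either strand. Python 3.11.15 with numpy 2.4.6, pandas 2.3.3, numba 0.67.0 and matplotlib 3.10.9 was also used.

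The genes named were those called, the 5 with the smallest *P* in each comparison with intact, the isoform pairs, members below the filter, the 3 members with the largest and the 3 with the smallest SD, and genes of other lists with the smallest *P*. The members and lists were chosen with earlier results of these data known. Named in addition, after their values were seen, were members with the highest levels, the extremes of each complex and of the correlations, members that differed between batches, and genes of the printed promoters. The batch, base composition, component, promoter choice and marker correlation analyses were also chosen after values were seen, as were those without PH 14-day replicate 5. Alternatives covered the covariate, scaling, filter, pseudocount, batches and each library left out.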

Additional observations from a re-analysis of the deposited data

Results flagged for a closer look

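Of 57 groups of libraries examined for a library far from the rest, 4 held one, and chance gives about 1 in 20. The mean of the 88 members in POA 14-day replicate 6 was −0.174 as a log2 deviation from the POA mean, and the other 14-day libraries lay between −0.0137 and 0.0718. In the same library *Ndufa9* had 3243, and the others had 3998 to 4346. PH 14-day replicate 5 had 3947 for *Ndufb1*, a small accessory subunit of complex I, and the others had 1847 to 2340. That library also had 9213 for *Cycs*, and the others had 3333 to 5387. Of the 31-base stretches of *Ndufb1* 53.3% occur, on either strand, in other genes' transcripts, and of those of *Cycs* 32.6%, so both values are uncertain. The cause was not tested.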

How the results depend on the processing

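The count of members called stayed at 0 in the 6 comparisons within a region under 13 alternatives of covariate, scaling, filter, pseudocount and batch. In the 2 comparisons between regions it stayed at 0 under the 8 that were run there (none within a batch or with a marker mean). It also stayed at 0 with each library left out. The medians moved by less than 1 SD of the member mean (0.0789). That bound is larger than every median, so a median could turn and still lie within it. Between the OVX times in the POA the alternatives gave −0.056 to 0.092. With libraries left out, the median log2 fold change ranged from 0.014 to 0.052 (PH, 14 days), −0.017 to 0.049 (PH, 4 months), −0.035 to 0.041 (POA, 14 days) and −0.025 to 0.037 (POA, 4 months). Between the OVX times it ranged from −0.048 to 0.012 (PH) and from −0.024 to 0.043 (POA), and between regions from −0.0097 to 0.052 (14 days) and −0.031 to 0.044 (4 months), so these directions rest on single libraries. Direction reversed within a batch for *Ndufa2* (PH, 14 days, −0.032 in batch 2), *Ndufs1* (POA, 14 days, 0.020 in batch 1) and *Cox6b2* (POA, 4 months, −0.0079 in batch 1), and the cause was not tested. With an unadjusted *P* under 0.05, 2 PH members were higher (2.27%, against 3.49% of all genes) and 2 lower (2.27%, against 4.48%) at 4 months without 4-month replicate 3. In the POA, SV1 with batch gave 1 higher and 4 lower at 14 days (1.14% and 4.55%, against 4.26% and 5.88% of all genes) and 0 and 5 at 4 months (5.68% lower, against 7.92%). SV1 with the thalamus marker mean gave 5 higher and 0 lower at 14 days (5.68% higher, against 3.3%) and 11 and 1 at 4 months (12.5% and 1.14%, against 5.21% and 5.14%). SV1 with the ribosomal protein mean gave 0 and 3 at 14 days (3.41% lower, against 4.63%) and 1 and 5 at 4 months (1.14% and 5.68%, against 5.08% and 6.24%). Both marker fits were chosen after the data were seen.

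Libraries with the same replicate number correlated at −0.18 to 0.39 (PH) and −0.31 to 0.39 (POA) in their deviations from the group means. The negative POA values come from intact replicate 3, which lies in another batch than the OVX libraries of that number, and same-batch POA pairs were at 0.107 to 0.391. The study's methods describe females euthanized either intact, at 14 days or at 4 months, so libraries of different groups cannot come from 1 mouse. Since not every pair was above 0.1 and no label says what the numbers mean, they were not taken as pairs. Between regions, libraries of 1 group and number, all in the same batch, correlated at −0.32 to 0.44, with 2 of 16 below 0, and the interaction fit treated them as independent. With these as a replicate block, chosen after the data were seen, the interaction medians were 0.02 (14 days) and −0.0040 (4 months), and 0 members were called. With the number as a replicate block within a region the medians were 0.02 (PH, 14 days), −0.0098 (PH, 4 months), −0.01 (POA, 14 days) and 0.0031 (POA, 4 months), and that block changed no call. Weakly expressed forms such as *Cox8b* lie close to the floor, where the fold change is least certain.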
